A study of Mus musculus with 6 samples.

Results

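Serine synthesis and folate-dependent one-carbon metabolism are described here by the RNA of 9 enzymes among the 24499 genes of a bulk RNA-seq count table. The enzymes were chosen by gene symbol for their place in the pathway, and all 9 were found. The libraries came from day 3 iGCBs, which are germinal center-like B cells made in vitro from naïve splenic B cells on 40LB feeder cells with IL-4 at 1 ng/ml. 40LB cells are BALB/c 3T3 fibroblasts that express CD40L and BAFF, and they were irradiated at 120 Gy. The 3 cKO libraries came from mice with floxed alleles of *Eif3e* (*Eif3e* fl/fl), a *Cγ1* Cre allele and a *Rosa26-YFP* LSL reporter. *Eif3e* codes for a subunit of the translation initiation factor eIF3. Cre is expressed where the Ig γ1 constant region is transcribed, so that deletion starts once B cells are activated. The 3 control libraries are labelled control, and elsewhere in the study the reporter controls carry *Cγ1* Cre and *Rosa26-YFP* LSL without the floxed alleles. Cells of both groups were sorted as YFP+, which requires Cre and the reporter. All mice were C57BL/6J. The age and sex of these mice were not given in the sources used here, and the replicates are numbered samples of each group.

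In the pathway, *Phgdh*, *Psat1* and *Psph* turn the glycolytic intermediate 3-phosphoglycerate into serine. Serine hydroxymethyltransferases then split serine into glycine and a carbon unit that is carried on folate, by SHMT1 in the cytosol and by SHMT2 in mitochondria. In mitochondria MTHFD2 and MTHFD1L pass that unit on as formate, while in the cytosol the trifunctional MTHFD1 takes up formate or oxidizes folate-bound carbon for purine and thymidylate synthesis. Activated lymphocytes are known to use serine and its mitochondrial breakdown for nucleotide synthesis while they divide.

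The library labels were first checked against the targeted gene and cell markers. *Eif3e* (GRCm38 15:43250058-43282719, minus strand) stood at 173, 149.8 and 152 CPM (counts scaled to the library's size by TMM) in cKO replicates 1 to 3 and at 424, 401 and 392 CPM in control replicates 1 to 3, a fall to 39% of control (adjusted p = 6.71e-07, edgeR). The table counts whole genes, so that reads from the deleted part could not be counted apart. All 7 B cell markers were expressed, with summed levels of 4969 to 5167 CPM in cKO and 4905 to 5345 CPM in control libraries. Of 16 fibroblast markers, 12 passed the filter on low counts, their list summed to 111 to 136 CPM in cKO and 80.3 to 148 CPM in control, 3 were called higher and 0 lower, and *Postn* and *Lum* were at 0 in every library. The 7 germinal center markers summed to 269 to 282 CPM in cKO and 338 to 414 CPM in control (1 higher, 4 lower), and the 6 plasma cell markers to 646 to 788 and 831 to 852 CPM (2 higher, 3 lower). The largest part of the plasma cell sum was *Irf4*, which rose from 413 ± 39.5 to 554 ± 61.9 CPM (SD, n = 3 each). *Sdc1* also rose, from 4.70 ± 0.852 to 14.2 ± 1.04 CPM, while *Jchain* fell from 116 ± 27.0 to 7.25 ± 2.33 CPM (SD, n = 3 each). *Xbp1* and *Prdm1* fell to 46.7% and 45.6% of control. The 5 T cell markers reached at most 0.355 CPM, with *Cd3e* at 0 throughout. The 5 myeloid markers summed to 4.08 to 6.06 CPM in cKO and 1.22 to 2.45 CPM in control (1 higher, 0 lower), with *Cd14* at 0. The myeloid gene called was *Adgre1*, which made up most of the cKO sums. It was at 3.64, 4.67 and 5.54 CPM in cKO replicates 1 to 3 and 0.620, 0.916 and 2.02 CPM in control replicates 1 to 3. *Xist* exceeded 1000 counts in cKO replicate 2 and control replicates 1 and 2 and had at most 16 counts in the other 3 libraries. Library sizes lay between 39079582 and 45504570 counts, where a floor of 3 counts equals 0.0659 to 0.0768 CPM, covering counting error only.

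The folate enzymes of the cytosol and of mitochondria moved in opposite directions in cKO iGCBs. The 2 cytosolic folate enzymes, *Shmt1* and *Mthfd1*, rose, whereas all 3 serine synthesis enzymes and all 4 mitochondrial folate enzymes fell. All 9 enzymes passed the filter on low counts and all 9 were called, at an adjusted p under 0.05 in edgeR's quasi-likelihood test over the 13296 genes tested. Calls were frequent in this comparison, since 48.6% of all genes tested were called, 24.1% as higher and 24.5% as lower in cKO. For all 9 the levels of the groups were fully separate, without overlap, which was also the case for 58.7% of all genes tested. With a further cutoff of 1.5-fold, 2 enzymes remained higher and 6 lower, where 10.4% and 10.6% of all genes passed. The median log2 fold change was -0.69 over the 9 enzymes, -0.69 over serine synthesis, 0.94 over the cytosolic pair and -0.88 over the mitochondrial enzymes, beside -0.0040 over all genes tested. With the level of *Xist* as a covariate, all 9 enzymes kept their direction and their call.

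**Figure D1:**
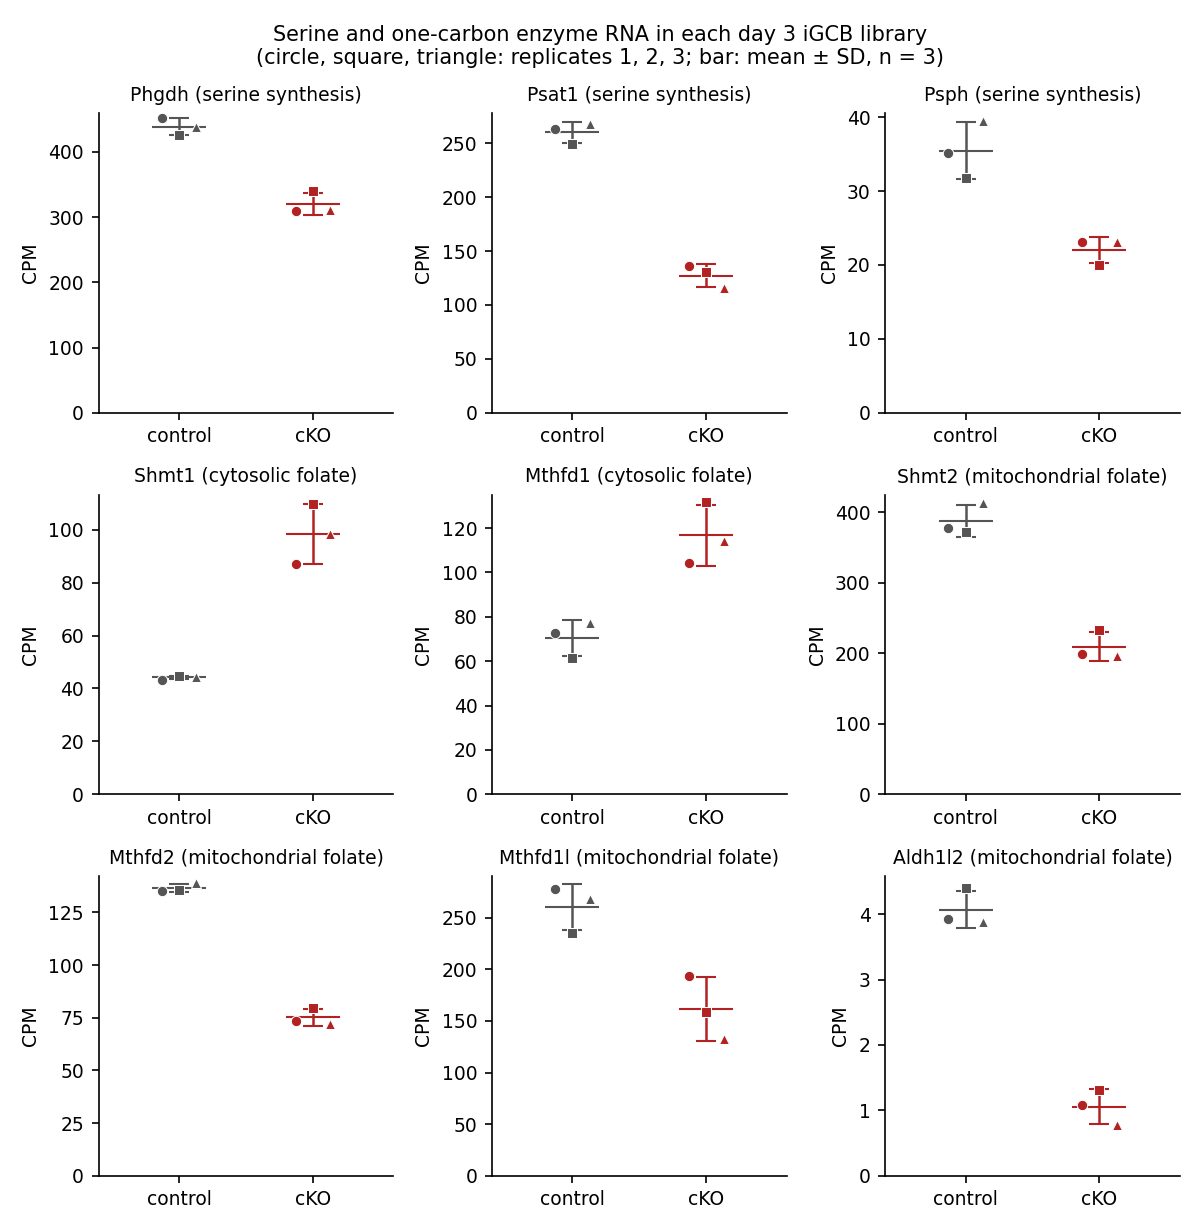
Level of each enzyme (CPM, linear axes from 0) in the 3 control libraries (grey) and the 3 cKO libraries (red), with circles, squares and triangles for replicates 1 to 3 and bars for the mean ± SD (n = 3). The cKO points lie above the control points for *Shmt1* and *Mthfd1* and below them for the other 7 enzymes.

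The RNA of the serine synthesis enzymes was lower at each of the 3 steps, and most at the second. *Phgdh* (3:98313170-98339990, minus strand; GENCODE M21 on GRCm38, as for all genes here), the dehydrogenase that commits 3-phosphoglycerate to serine, was at 309.7, 339.7 and 310.5 CPM in cKO replicates 1 to 3 and at 452, 426 and 438 CPM in control replicates 1 to 3. Its groups were well apart, yet its fall to 72.9% of control was the smallest of the 9 changes and the single one short of 1.5-fold (log2 fold change -0.46, SE 0.05, adjusted p = 7.73e-05, edgeR). *Psat1* (19:15904678-15947337, minus strand), the aminotransferase that follows, was at 136, 130.1 and 116 CPM in cKO and 263, 249 and 268 CPM in control. The highest cKO library lay far below the lowest control library, and the level was 49.0% of control in the fit (log2 fold change -1.03, SE 0.07, adjusted p = 2.33e-06, edgeR). *Psph* (5:129765558-129787449, minus strand), the phosphatase that releases serine, was at 23.1, 20 and 23.1 CPM in cKO and 35.1, 31.8 and 39.5 CPM in control, a fall to 62.2% (log2 fold change -0.69, SE 0.10, adjusted p = 0.000393, edgeR). *Psph* overlaps *Cct6a*, a chaperonin subunit gene that moved the other way, from 194 ± 13.0 to 362 ± 17.4 CPM (SD, n = 3 each).

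The cytosolic pair was higher in every cKO library. *Shmt1* (11:60788104-60811718, minus strand), the cytosolic serine hydroxymethyltransferase, was at 87.1, 109.9 and 98.4 CPM in cKO replicates 1 to 3 and at 43.4, 44.7 and 44.4 CPM in control replicates 1 to 3. The control libraries were nearly equal, and the lowest cKO library lay far above them, a 2.23-fold rise (log2 fold change 1.16, SE 0.08, adjusted p = 3.66e-06, edgeR). *Shmt1* overlaps *Smcr8* on the opposite strand, and whether strand was used in counting was not given in the sources used here. The level of *Smcr8* was 127 ± 5.78 CPM with *Eif3e* deleted and 132 ± 9.70 CPM in control (SD, n = 3 each; adjusted p = 0.509, edgeR). *Mthfd1* (12:76255298-76319803, plus strand), the trifunctional cytosolic enzyme, was at 104, 132 and 114 CPM in cKO and 72.9, 61.2 and 77.0 CPM in control. It rose 1.66-fold with more spread within both groups than *Shmt1* (log2 fold change 0.73, SE 0.10, adjusted p = 0.000208, edgeR). cKO replicate 2 was the highest library for both genes.

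The mitochondrial enzymes all fell, from the most abundant to the rarest. *Shmt2* (10:127517123-127522444, minus strand), the mitochondrial counterpart of *Shmt1*, was at 199, 233 and 196 CPM in cKO and 377, 372 and 414 CPM in control, a fall to 54.0% (log2 fold change -0.89, SE 0.07, adjusted p = 9.17e-06, edgeR). *Mthfd2* (6:83305691-83325908, minus strand), the mitochondrial methylene-folate dehydrogenase and cyclohydrolase, was at 73.5, 79.7 and 72.2 CPM in cKO and 135, 136 and 139 CPM in control. It had tight groups and a fall to 55.0%, close to that of *Shmt2* (log2 fold change -0.86, SE 0.06, adjusted p = 2.55e-06, edgeR). *Mthfd1l* (10:3973118-4167081, plus strand), the mitochondrial formate-releasing synthetase, was at 193, 159 and 132 CPM in cKO and 278, 235 and 269 CPM in control. Its cKO libraries spread most among the enzymes above 100 CPM, and it fell to 62.0% (log2 fold change -0.69, SE 0.12, adjusted p = 0.000833, edgeR). Without cKO replicate 3, its lowest library, the log2 fold change of *Mthfd1l* was -0.57, short of 1.5-fold but still called.

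*Aldh1l2* (10:83487450-83534140, minus strand), which oxidizes formyl-folate in mitochondria and makes NADPH, was scarce and fell furthest. It had 49, 59 and 33 counts in cKO replicates 1 to 3 and 177, 173 and 160 counts in control replicates 1 to 3, which is 1.08, 1.31 and 0.778 CPM against 3.92, 4.40 and 3.89 CPM. All counts were well above the floor, and the fall to 26% of control (log2 fold change -1.94, SE 0.26, adjusted p = 0.000169, edgeR) lay below that of all but 0.948% of the genes tested. *Aldh1l2* is overlapped on the opposite strand by *D10Wsu102e*, which fell as well, from 142 ± 10.7 to 76.3 ± 5.59 CPM (SD, n = 3 each) or 53.9% of control. The fall of *Aldh1l2* and that of its far more abundant partner cannot be told apart where reads were counted without strand, and the part of such reads was not tested. The fibroblast marker sum was 126, 136 and 111 CPM in cKO replicates 1 to 3, in the same order as *Aldh1l2* in these libraries, and 148, 135 and 80.3 CPM in control replicates 1 to 3, where the order differed. The part of feeder cell RNA in the level of *Aldh1l2* was not tested.

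**Figure D2:**
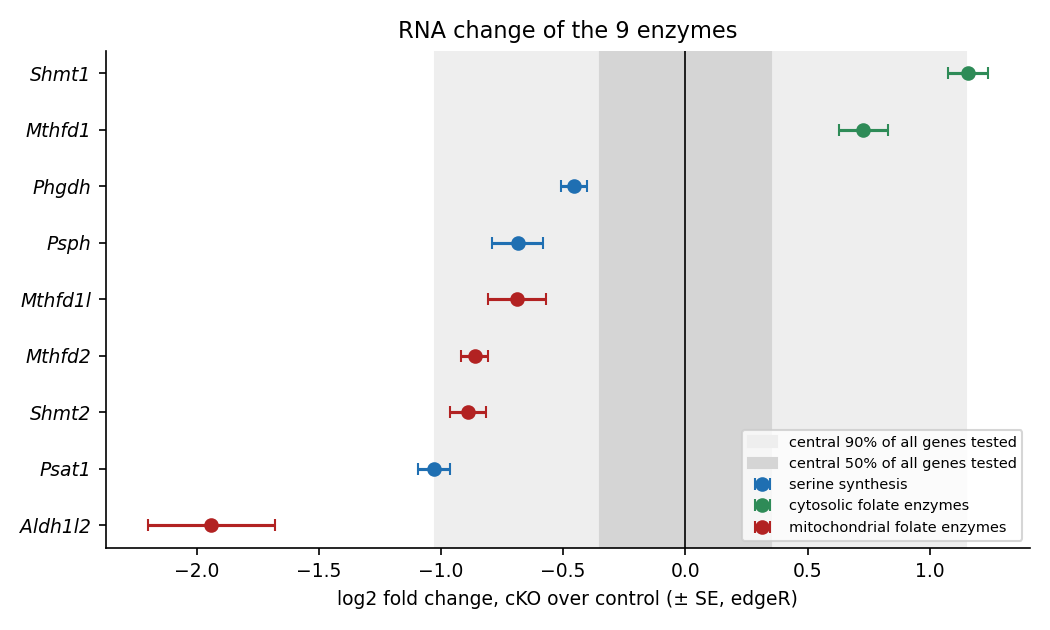
Log2 fold change of the 9 enzymes, cKO over control, with the SE from edgeR and colors for the 3 roles, over bands that hold the central 90% (light) and the central 50% (dark) of all genes tested. All 9 points lie outside the dark band, which runs from -0.35 to 0.35, and *Aldh1l2*, *Psat1* and *Shmt1* also lie outside the light band, which runs from -1.02 to 1.15.

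To compare levels between genes, TPM, a level scaled by transcript length and by library, was computed from the transcript table. In control iGCBs the order was *Phgdh* (485 ± 11.9 TPM), *Shmt2* (356 ± 17.3), *Psat1* (208 ± 5.76), *Mthfd1l* (151 ± 11.7), *Mthfd2* (137 ± 1.33), *Mthfd1* (45.4 ± 4.81), *Psph* (42.8 ± 4.24), *Shmt1* (32.4 ± 0.729) and *Aldh1l2* (1.41 ± 0.116), each as mean TPM ± SD (n = 3). *Mthfd1* and *Psph* overlapped in this order and were not separated beyond their spread. In cKO iGCBs *Phgdh* (349 ± 14.2 TPM), *Shmt2* (189 ± 16.5), *Psat1* (101 ± 7.86) and *Mthfd1l* (92.6 ± 17.9) had the highest means (SD, n = 3). *Mthfd1l* ran from 76.1 to 112 TPM and overlapped *Psat1* above it and the 3 enzymes that follow. *Mthfd2* (74.4 ± 3.04 TPM), *Mthfd1* (74.3 ± 7.90) and *Shmt1* (71.1 ± 7.47) came to one level, where *Mthfd2* had been about 3 times *Mthfd1* in control (SD, n = 3). *Psph* (26.3 ± 2.40 TPM) and *Aldh1l2* (0.361 ± 0.0878) followed (SD, n = 3).

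Ratios within a library, which do not depend on its scaling, gave the balance between the compartments. The TPM ratio of *Shmt2* to *Shmt1* was 2.86, 2.66 and 2.49 in cKO replicates 1 to 3 and 10.9, 10.4 and 11.7 in control replicates 1 to 3. The mean ratio was thus 4.12-fold higher in control, with no library near the other group. The TPM ratio of *Mthfd2* to *Mthfd1* was 1.10, 0.942 and 0.983 in cKO and 2.89, 3.44 and 2.80 in control. The TPM ratio of *Mthfd1l* to *Mthfd1* was 1.67, 1.09 and 1.04 in cKO and 3.44, 3.46 and 3.13 in control, and cKO replicate 1 stood above the other 2. Within serine synthesis the shift was smaller, with a TPM ratio of *Psat1* to *Phgdh* of 0.318, 0.278 and 0.272 in cKO and 0.422, 0.423 and 0.444 in control. These ratios restate the levels above and were not tested.

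**Figure D3:**
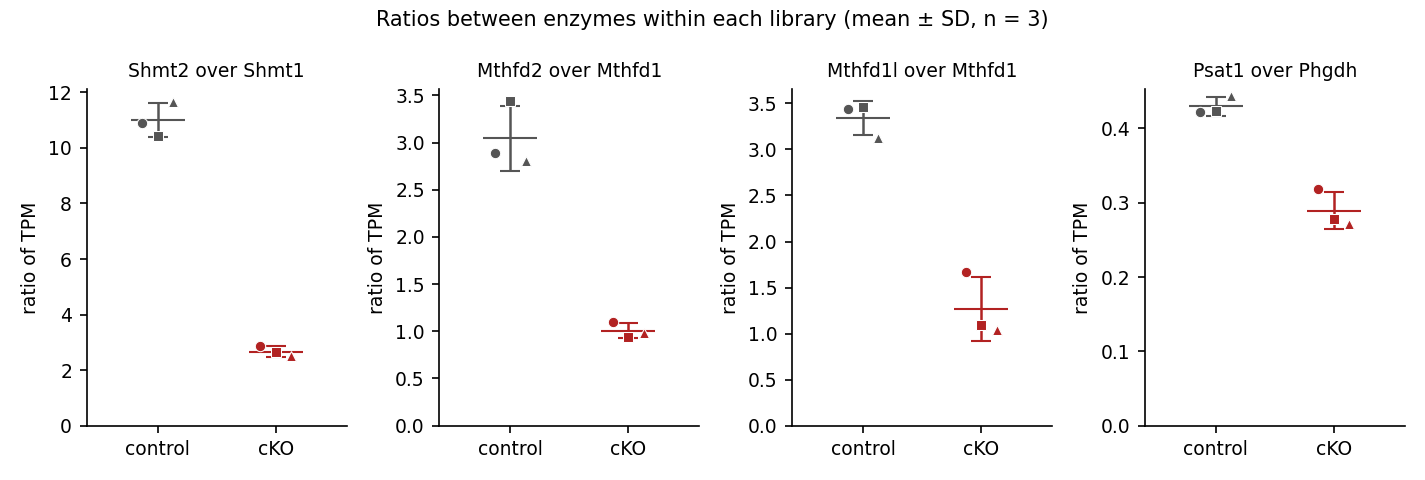
Ratio of TPM between 2 enzymes within each library (linear axes from 0), with control in grey, cKO in red, circles, squares and triangles for replicates 1 to 3, and bars for the mean ± SD (n = 3). The cKO libraries lie below the control libraries in all 4 panels, by the widest margin for *Shmt2* over *Shmt1*, with means of 2.67 and 11.

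Across the 9 enzymes the summed level was 1127, 1204 and 1063 CPM in cKO replicates 1 to 3 and 1660.5, 1561 and 1692 CPM in control replicates 1 to 3, so that the falls outweighed the rises in total RNA. In these bulk libraries, fewer cells with a transcript and less RNA per cell cannot be told apart.

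The table of RefSeq transcripts was used to see whether a change fell on some transcripts of a gene. It held 13 transcripts of the 9 enzymes, of which 7 could be tested for their share of the gene, and 0 changed share (edgeR's diffSpliceDGE; 0 also at an unadjusted p under 0.05), while 47 of the 7646 transcripts tested in the whole table did. *Shmt2* had a minor transcript, NM_001252316, with 11.8%, 15.0% and 11.3% of the gene's counts in cKO and 17.1%, 17.2% and 13.0% in control, groups that overlapped. *Mthfd1l* was divided about evenly in both groups, with NM_172308 at 50.4% ± 9.54 in cKO and 50.7% ± 7.42 in control (SD, n = 3 each). The minor *Psat1* transcript, NM_001205339, held 3.02% ± 1.305 in cKO and 1.496% ± 0.954 in control (SD, n = 3 each). The test had little power, since in simulated data it recovered 0 of 188 transcripts changed 2-fold and 40 of 190 changed 8-fold.

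The promoters of the enzymes were then read from RefSeq (GRCm38.p6), which held 9 promoters for 8 of the 9 genes, each from 250 bases before the start to 50 bases after it. The core of the C/EBP-ATF response element (TGATGNAA, either strand), to which ATF4 binds in amino acid response genes, was in 0 of these 9 promoters and in 3.97% of all 32851 promoters of this length. The E-box CACGTG, a site of MYC and its relatives, was in 0 of 9 and in 7.15% of all. The windows cover only the stretch at the start, and no match says nothing of other letters or places. The 250 bases before the start are shown for the 2 serine hydroxymethyltransferases, since these genes share a reaction and moved in opposite directions, with CpG in capitals, 5′ to 3′ on the strand of the gene. The *Shmt1* sequence lies at chr11:60811266-60811515 and the *Shmt2* sequence at chr10:127522445-127522694, both on the minus strand.
Shmt1: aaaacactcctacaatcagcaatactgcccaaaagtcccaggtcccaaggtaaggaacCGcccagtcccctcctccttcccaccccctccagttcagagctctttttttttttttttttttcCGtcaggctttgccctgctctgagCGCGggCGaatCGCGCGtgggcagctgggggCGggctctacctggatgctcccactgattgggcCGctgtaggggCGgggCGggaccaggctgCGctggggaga
Shmt2: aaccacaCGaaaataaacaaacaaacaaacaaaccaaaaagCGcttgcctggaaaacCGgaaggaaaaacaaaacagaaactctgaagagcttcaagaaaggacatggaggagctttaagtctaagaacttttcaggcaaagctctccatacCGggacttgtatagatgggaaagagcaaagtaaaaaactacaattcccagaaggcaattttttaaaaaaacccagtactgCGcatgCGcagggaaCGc
*Shmt1* held 13 CpG in 60.0% G and C, and *Shmt2* held 7 CpG in 40.8%, where the median of all promoters was 6 CpG (quartiles 2 and 16) and 52.4%. The other promoters ranged from 7 CpG in *Phgdh*, *Mthfd2* and *Mthfd1l* to 24 in the richer of the 2 *Psat1* promoters, with 15 in *Mthfd1*, so that the promoters of the 2 rising enzymes lay within the range of those that fell.

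The genes around the pathway were read from 7 lists with 69 genes, of which 62 passed the filter on low counts. Of these, 12 were called higher and 21 lower at an adjusted p under 0.05 (edgeR), beside 24.1% and 24.5% of all genes tested. With a further cutoff of 1.5-fold, 5 were higher and 17 lower, beside 10.4% and 10.6% of all genes, and the median log2 fold change was -0.16.

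**Figure D4:**
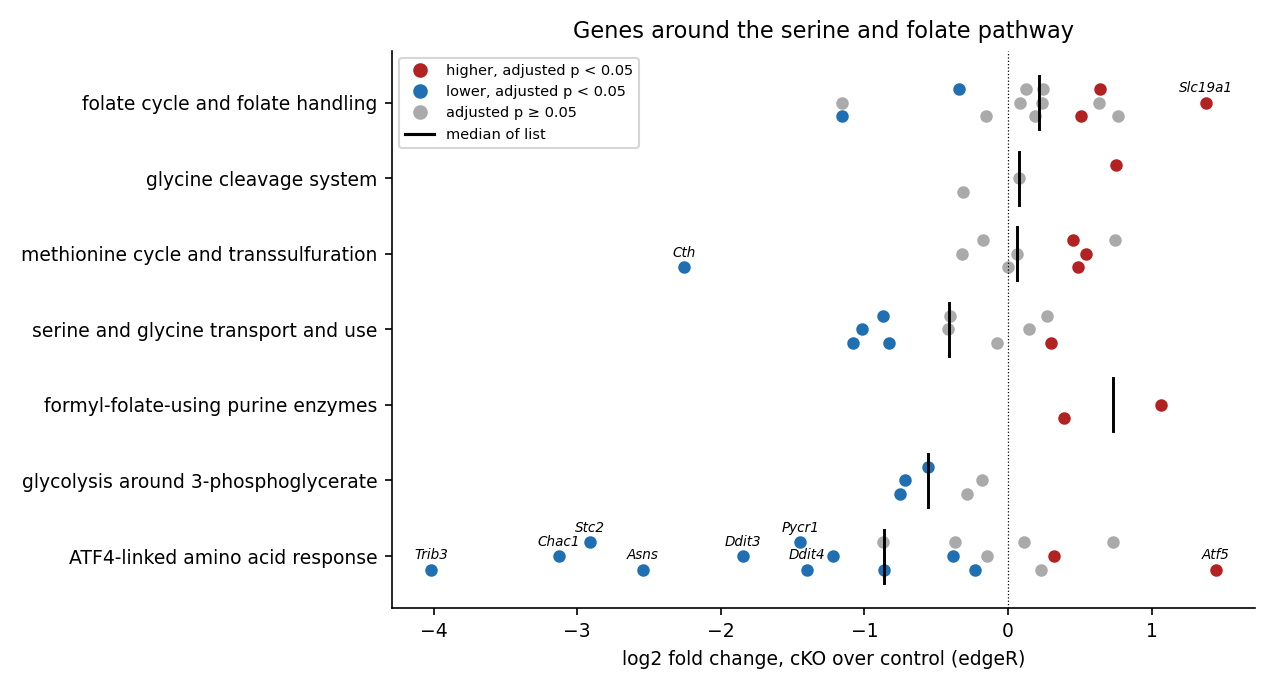
Log2 fold change, cKO over control, of the 62 tested genes in 7 lists around the pathway, colored by their call in edgeR (red higher, blue lower, grey not called), with a black line at the median of each list. The list medians run from -0.86 for the ATF4-linked genes to 0.73 for the 2 purine enzymes that use formyl-folate.

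The purine enzymes that take a formyl unit from folate rose with the cytosolic enzymes. *Gart*, which adds the first formyl unit to the purine ring, was at 189, 222 and 188 CPM in cKO replicates 1 to 3 and at 101, 88.5 and 96.6 CPM in control replicates 1 to 3 (log2 fold change 1.07, SE 0.08, adjusted p = 4.02e-06, edgeR). Its groups were far apart, at 210% of the control level in the fit. *Atic*, which adds the second and closes the ring, was at 178, 189.7 and 171 CPM in cKO and 139.8, 127 and 144 CPM in control (log2 fold change 0.39, SE 0.06, adjusted p = 0.000636, edgeR), a smaller rise. *Tyms*, thymidylate synthase, was not called, at 50.02 ± 3.38 and 47.2 ± 4.56 CPM in cKO and control (SD, n = 3 each; adjusted p = 0.461, edgeR).

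Of 14 tested genes of the folate cycle and folate handling, 3 were higher and 2 lower. *Slc19a1*, the reduced folate carrier of the plasma membrane, rose from 16.7 ± 1.82 to 43.5 ± 6.15 CPM (SD, n = 3 each; log2 fold change 1.38, adjusted p = 1.25e-05, edgeR). *Fpgs*, which adds the glutamate tail that keeps folate in the cell, rose from 15.4 ± 0.0155 to 21.9 ± 1.36 CPM (SD, n = 3 each; adjusted p = 0.00129, edgeR). *Mtfmt*, which uses formyl-folate for the initiator tRNA of mitochondria, rose from 12.6 ± 0.297 to 19.8 ± 0.457 CPM and was thus one user of mitochondrial formyl-folate that went up (SD, n = 3 each; adjusted p = 0.000283, edgeR). *Slc25a32*, the mitochondrial folate carrier, was at 21.1 ± 1.34 and 17.8 ± 0.279 CPM and just missed the threshold (SD, n = 3 each; adjusted p = 0.0505, edgeR). The close relatives of 2 enzymes were scarce and not called, with *Mthfd2l*, the paralog of *Mthfd2*, at 2.01 ± 0.394 and 1.29 ± 0.343 CPM in cKO and control, and *Aldh1l1*, the cytosolic counterpart of *Aldh1l2*, at 0.174 ± 0.159 and 0.391 ± 0.125 CPM (SD, n = 3 each; adjusted p = 0.131 and 0.323, edgeR).

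The neighbouring routes for glycine, methionine and serine were mixed. In the glycine cleavage system, 1 of 3 tested genes was called, *Gcsh*, the lipoyl carrier protein, which rose from 12.9 ± 2.68 to 21.7 ± 1.80 CPM (SD, n = 3 each; adjusted p = 0.00185, edgeR). In the methionine cycle and transsulfuration, 3 of 9 were higher and 1 lower. Methionine synthase *Mtr* rose from 32.4 ± 1.94 to 45.3 ± 1.61 CPM and its reductase *Mtrr* from 29.7 ± 1.05 to 43.2 ± 2.97 CPM (SD, n = 3 each; adjusted p = 0.000586 and 0.000384, edgeR). *Cth*, which makes cysteine from cystathionine, the condensation product of serine and homocysteine, fell from 15.6, 17.2 and 19.2 CPM in control replicates 1 to 3 to 3.37, 3.82 and 3.68 CPM in cKO replicates 1 to 3 (log2 fold change -2.26, SE 0.13, adjusted p = 1.58e-06, edgeR). Of 10 tested genes of serine and glycine transport and use, 1 was higher and 4 lower. The higher one was *Slc1a5*, a more abundant neutral amino acid transporter, from 300.4 ± 6.56 to 369 ± 28.4 CPM (SD, n = 3 each; log2 fold change 0.30, adjusted p = 0.00242, edgeR). The lower ones included *Slc1a4*, a neutral amino acid transporter that carries serine, from 23.6 ± 0.970 to 11.6 ± 0.326 CPM, and *Sptlc1*, a subunit of the enzyme that starts sphingolipids from serine, from 74.3 ± 1.66 to 40.6 ± 3.43 CPM (SD, n = 3 each; adjusted p = 1.67e-05 and 1.02e-05, edgeR). *Gcat*, a mitochondrial enzyme that makes glycine from a threonine product, fell from 50.5 ± 1.39 to 23.9 ± 5.25 CPM and *Sfxn3*, a sideroflexin, from 15.7 ± 1.09 to 8.84 ± 1.57 CPM (SD, n = 3 each; adjusted p = 0.000152 and 0.000871, edgeR). *Sfxn1*, the main mitochondrial serine carrier, was at 115 ± 10.1 and 122 ± 4.97 CPM in cKO and control, which overlapped (SD, n = 3 each; adjusted p = 0.380, edgeR).

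Among 5 glycolytic genes around 3-phosphoglycerate, 0 were higher and 3 lower. *Pgk1*, which makes 3-phosphoglycerate, fell from 2036 ± 168 to 1206 ± 271 CPM (SD, n = 3 each; adjusted p = 0.00104, edgeR). *Eno1* and *Pkm*, further down the glycolytic branch that competes for 3-phosphoglycerate, had log2 fold changes of -0.56 and -0.72 (adjusted p = 0.0115 and 0.000834, edgeR). cKO replicate 3 was the lowest library for all 3 of these genes, as it was for *Psat1* and the 4 mitochondrial enzymes.

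ATF4 is a transcription factor of the amino acid response for which *Phgdh*, *Psat1*, *Shmt2* and *Mthfd2* are known targets, and a list of 19 genes of this response, *Atf4* itself included, was tested whole. Of these, 11 were lower and 2 higher, beside 24.5% and 24.1% of all genes tested, with a median log2 fold change of -0.86. *Atf4* RNA itself was not called, at 634, 669 and 641 CPM in cKO replicates 1 to 3 and 627, 560.3 and 611 CPM in control replicates 1 to 3 (log2 fold change 0.11, SE 0.05, adjusted p = 0.105, edgeR). ATF4 is controlled largely at translation, and its protein was not measured by these libraries. *Asns*, asparagine synthetase, fell from 112 ± 3.73 to 19.2 ± 3.60 CPM (SD, n = 3 each; log2 fold change -2.54, SE 0.12, adjusted p = 6.20e-07, edgeR). *Trib3*, a pseudokinase, *Chac1*, a glutathione-degrading enzyme, and *Stc2*, a secreted glycoprotein, had log2 fold changes of -4.02, -3.13 and -2.91 (adjusted p = 1.30e-06, 7.01e-06 and 0.000189, edgeR). These falls exceeded those of all 9 enzymes described here. The 2 genes that rose were *Cebpg* and *Atf5*, a transcription factor related to ATF4, with log2 fold changes of 0.32 and 1.44.

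The response element was absent from the 9 promoters of 8 enzymes in these windows, and *Aldh1l2* had no promoter entry. It was found in 9 of the 58 listed genes with a promoter entry. Of these 9 genes, 5 fell (*Asns*, *Chac1*, *Pycr1*, *Slc1a4* and *Trib3*) and the other 4 (*Atf3*, *Nupr1*, *Slc7a11* and *Vldlr*) were not called. Of the 9, all but *Slc1a4* are from the list in which 11 of 19 genes fell, so that this count says nothing about the motif. *Vldlr* just missed the threshold (log2 fold change -0.87, adjusted p = 0.0502, edgeR) and was called lower in 8 of 16 alternatives, among them the one without cKO replicate 1, which at 8.31 CPM stood apart from the 3.13 and 3.18 CPM of cKO replicates 2 and 3. Windows around the match are shown for 4 of the genes that fell, to set beside the enzyme promoters, with the match in capitals and 5′ to 3′ on the strand of the gene. They lie at chr6:7693215-7693242 (*Asns*, minus strand), chr2:119351039-119351066 (*Chac1*, plus), chr11:120643834-120643861 (*Pycr1*, minus) and chr2:152344029-152344056 (*Trib3*, minus), in RefSeq on GRCm38.p6. In *Chac1* and *Trib3* the match is on the opposite strand and reads as its reverse complement.
Asns: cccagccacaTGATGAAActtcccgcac
Chac1: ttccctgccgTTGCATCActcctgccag
Pycr1: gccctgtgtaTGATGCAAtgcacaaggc
Trib3: tagctcaggtTTACATCAgccgggcggg
A match of these letters is a description, and binding was not measured.

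Finally, the genes whose pattern was most like that of each serine hydroxymethyltransferase were found by Pearson's r of log2 CPM over the 6 libraries, among 8513 genes with a mean of at least 10 CPM. For *Shmt1* these were *Zc3h18*, *Ttc27*, *Larp1b*, *Ubqln4* and *Ubxn11*, with r from 0.998 to 0.999. For *Shmt2* they were *Aldh18a1*, *Sgpl1*, *Zfp715*, *Pcif1* and *Aldh16a1*, with r from 0.997 to 0.999. *Aldh18a1*, which starts proline synthesis, fell from 151 ± 7.98 to 83.0 ± 6.32 CPM (SD, n = 3 each), close to the proportion of *Shmt2*. The 6 points share the split into cKO and control libraries.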

How the data were processed

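Bulk RNA-seq libraries from 3 cKO and 3 control samples were analysed, grouped by their labels. Reads were trimmed by the authors and aligned with HISAT2, and the estimated counts they deposited, for genes and for RefSeq transcripts, came from StringTie. The submitters' processing notes name mm10, and tool versions, the read length setting and strand were not given in the sources used here. The estimated counts are whole numbers without normalization, and totals of 39079582 to 45504570 set their precision. The p-values set the difference between groups against the spread between these samples, which edgeR estimates with information from all genes. An exact permutation test of 3 against 3 cannot go below 0.1.

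Gene counts were fitted in edgeR 4.0.16 under R 4.3.3 (filterByExpr with a minimum count of 10, TMM, glmQLFit, glmQLFTest, no covariates), with Benjamini-Hochberg adjustment over all genes tested. A call needed an adjusted p under 0.05. Transcript shares were tested with diffSpliceDGE over the whole transcript table, after 34674 of 36026 transcripts were matched to genes. TPM used transcripts with a GENCODE M21 length, which held 98.2% of counts. Locations were matched by symbol to GENCODE M21, and promoters are from RefSeq.

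The enzymes and gene lists were chosen with earlier results of these data known. Values were given for all 9 enzymes, *Eif3e*, *Xist*, at most the 4 largest called changes per list and listed genes picked for their place beside the enzymes (a shared reaction or substrate, mitochondrial carriers of serine and folate, and *Atf4*). Overlapping genes, *Aldh18a1*, *Atf5*, *Cebpg*, *Slc1a5*, *Vldlr* and marker genes were named after their values were seen. Some listed genes that the rule names are not reported here.

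The scripts were checked on simulated data in which 200 of 13296 genes were changed 2-fold. edgeR recovered 76.4% of the 195 it tested, with 11 unchanged genes called, and DESeq2 1.42.0 recovered 77.5% of 200, with 22. A first limit on all changed genes was not met, and it was then set on the 153 whose mean reached 100 counts, where edgeR found 146 and DESeq2 148.

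Alternatives were DESeq2, the study's tool, DESeq2's size factors in edgeR, total counts only, no filter, a minimum of 10 counts in all 6 libraries, a fit without immunoglobulin genes, counts divided by 2, *Xist* as a covariate, the replicate number as a block, a further 1.5-fold cutoff and each library left out. Leaving out *Xist* and the genes of the Y chromosome was added after the data had been seen.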

Additional observations from a re-analysis of the deposited data

How the results depend on the processing

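All 9 enzymes kept their direction and their call in each of 16 alternatives other than the fold cutoff (144 values), with the largest adjusted p at 0.00644 for *Mthfd1l* without cKO replicate 2 (edgeR). With each library left out in turn, 2 enzymes stayed higher and 7 lower, and the log2 fold change ranged from -2.12 to -1.76 for *Aldh1l2* and from 1.07 to 1.24 for *Shmt1*. The counts over all genes ranged from 2722 to 3075 higher and 2834 to 3037 lower. A further 1.5-fold cutoff left 1378 higher and 1415 lower genes, from 3204 and 3264, 2 higher and 6 lower enzymes, without *Phgdh*, and 5 higher listed genes, from 12. Of the 62 listed genes, 12 changed call under some of the 16 alternatives without the fold cutoff, 3 by losing it (*Mthfsd*, *Mtap* and *Sesn2*) and 9 by gaining it, and 0 reversed. No changed transcript share of an enzyme was called under any alternative run, in a test with little power.

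The labels do not say whether replicate numbers pair the samples. Same-numbered libraries correlated at 0.046, -0.022 and 0.058 in their deviations from the group means, and not every library correlated best with its own number. With 3 libraries per group, these values cannot decide whether same-numbered samples were prepared together. The paper used paired t tests for cell growth, death and surface proteins of control and cKO iGCBs. With the replicate number as a block, 3069 genes were higher and 3165 lower, and 2 enzymes were higher and 7 lower. Strand, read length and the alleles of the controls limit what these tables show, and so do 3 libraries per group.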
